A study of Homo sapiens with 6 samples.

Results

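The nuclear genes for subunits of oxidative phosphorylation (OXPHOS) were followed in HGC27, a human gastric cancer cell line, after 48 h of ARV-825 (n = 3, the nanomolar dose written ARV125nM in the labels) or in DMSO controls without the compound (n = 3, ARV_0nM). ARV-825 is a PROTAC, a molecule with a part that binds BET proteins and a part that binds cereblon, and so it brings BET proteins to a ubiquitin ligase. The controls are called untreated in the sample labels and DMSO in the study's methods. Whether the 3 samples in each group were grown separately is not stated, and the p-values measure the spread among those samples, technical or not.

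Members were chosen by name and not by their values. They are the autosomal protein-coding genes whose current symbol is NDUFA, NDUFB, NDUFC, NDUFS or NDUFV with a number, SDHA to SDHD, UQCR with any ending, CYC1, COX4 to COX8 with a letter, or ATP5F, ATP5M or ATP5P with any ending. The rule found 86 of the 58735 genes in the table, and 2 of them are read-through loci (NDUFC2-KCTD14 and ATP5MF-PTCD1), which were counted apart. The other 84 genes comprise 34 of complex I, 4 of complex II, 10 of complex III, 18 of complex IV and 18 of complex V. NDUFA4 and NDUFA4L2 were placed with complex IV, where the NDUFA4 protein is found in spite of its name. Left out by the rule were 3 X-linked genes and the 13 subunits encoded by the mitochondrial genome.

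Oxidative phosphorylation takes place in the inner mitochondrial membrane. Complexes I and II feed electrons from NADH and succinate to coenzyme Q, complex III passes them to cytochrome c, and complex IV passes them to oxygen. Complexes I, III and IV pump protons, and complex V, the ATP synthase, uses the proton gradient to make ATP. Most subunits are encoded in the nucleus and imported, all subunits of complex II among them, and the other complexes also hold subunits made inside the mitochondrion, so both genomes supply parts of the same enzymes. NRF1, the GABP factors and YY1 are known to bind promoters of many nuclear subunit genes, and MYC is known to act on genes of mitochondrial function.

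The library kit is of a poly(A)-selecting type that leaves strand unmarked. The values are FPKM, in which the fragments of a gene are divided by its exon length in kilobases and by the library's own scale. Between 14821971 and 15201942 fragments lay in genes in the ARV-825 libraries and between 16626609 and 19145661 in the DMSO libraries. FPKM summed to 348808 to 360662 per ARV-825 library and to 282667 to 294346 per DMSO library, and mitochondrial genes held 9.84 to 12.0% of the fragments in ARV-825 and 5.62 to 6.24% in DMSO. The library of ARV-825 replicate 1 differed most from its group (chi-square per degree of freedom 7.50 and 6.75 to the other two, which had 1.67 to each other, with 1.83 to 2.19 within DMSO). It was the highest ARV-825 library in 51 of the 78 members tested. Of the defining markers fixed for an epithelial cell (7 genes) and for gastric mucosa (6 genes), none reached a mean of 1 FPKM. The 4 mesenchymal markers were mixed. VIM was at 247 ± 1.90 FPKM in ARV-825 and 269 ± 5.94 FPKM in DMSO. ZEB1 was at 7.52 FPKM in ARV-825 and 11.1 FPKM in DMSO, and FN1 at 1.99 FPKM in ARV-825 and 4.76 FPKM in DMSO. CDH2 was near absent, at 0 FPKM in ARV-825 and 0.0574 FPKM in DMSO. Blood and endothelial markers were also below a mean of 1 FPKM.

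Of the 84 members, 78 had a mean of at least 1 FPKM over the 6 libraries and were tested with all other such genes by limma on log2(FPKM + 1). At an adjusted p under 0.05, 24 members were higher with ARV-825 and 33 were lower, and 21 did not pass. Among all 13442 genes tested, 37.0% were higher and 40.2% were lower by the same rule, so the shares of members are near those of all genes. Over the members the median log2 fold change was −0.04, and over all genes it was −0.02. The ARV-825 libraries all lay above the DMSO libraries in 24 members (38.5% of all genes) and all below in 34 (41.6% of all genes), and the groups overlapped in the other 20. Past an absolute log2 fold change of 1 as well, COX8C and COX7A1 were higher (8.81% of all genes), and NDUFA4L2 and NDUFB10 were lower (12.1% of all genes). COX8C, with 1 fragment in all DMSO libraries, passed the filter only through the ARV-825 libraries and so had to differ, and every count of higher members given here includes it. NDUFA4L2, with a mean of 0.975 FPKM in ARV-825, passed the filter only through the DMSO libraries, and it is among the 33 lower. The log2 fold change was under 0.5 in size in 61 of the 78 members, or 78.2%, against 50.8% of all genes. All genes tested include non-coding genes and genes of low level, and a background matched for level was not compared.

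The balance of higher and lower members depends on how the libraries are scaled. Rescaled to TPM, which sets every library to the same sum over all genes, 7 members were higher and 57 lower, beside 23.6% and 53.7% of all genes, and the median of all genes moved to −0.31. Rescaled to an equal FPKM sum of the genes outside the mitochondrial genome, 22 members were higher and 35 lower, beside 4808 and 5573 of all 13442 genes. Median-of-ratios scaling gave 25 higher and 29 lower, beside 5237 and 5212 of all genes. Quantile normalization gave 27 and 27, beside 5335 and 5107 of all genes. Recovered fragment totals, which include mitochondrial fragments, gave 18 and 37, beside 4455 and 5915 of all genes. The 7 members higher on TPM were NDUFA2, SDHA, SDHC, UQCRHL, COX7A1, COX8C and ATP5PD, which were all higher on FPKM too. All 33 members that were lower on FPKM were also lower on TPM. As TPM lowers the ARV-825 values against the DMSO values, both overlaps follow largely from that shift and are no separate support. Another 4 members were higher on FPKM and lower on TPM (NDUFA10, UQCRC2, NDUFA4 and COX6C). On FPKM the all-gene median is so near 0 that subtracting it shifts each member by only 0.02. The FPKM fold changes below can thus be read as relative to all genes tested. The median of protein-coding genes alone was −0.09, so small changes read differently against that background. Ratios between members within a library do not depend on the scale at all, and they are given beside the fold changes for that reason. The pairs were not fixed in advance. Several set a member with a large change against one with a small or opposite change, so their separation follows largely from that choice and is no separate support. Across bulk RNA such as this, fewer cells of a type and less RNA per cell cannot be told apart.

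**Figure D1:**
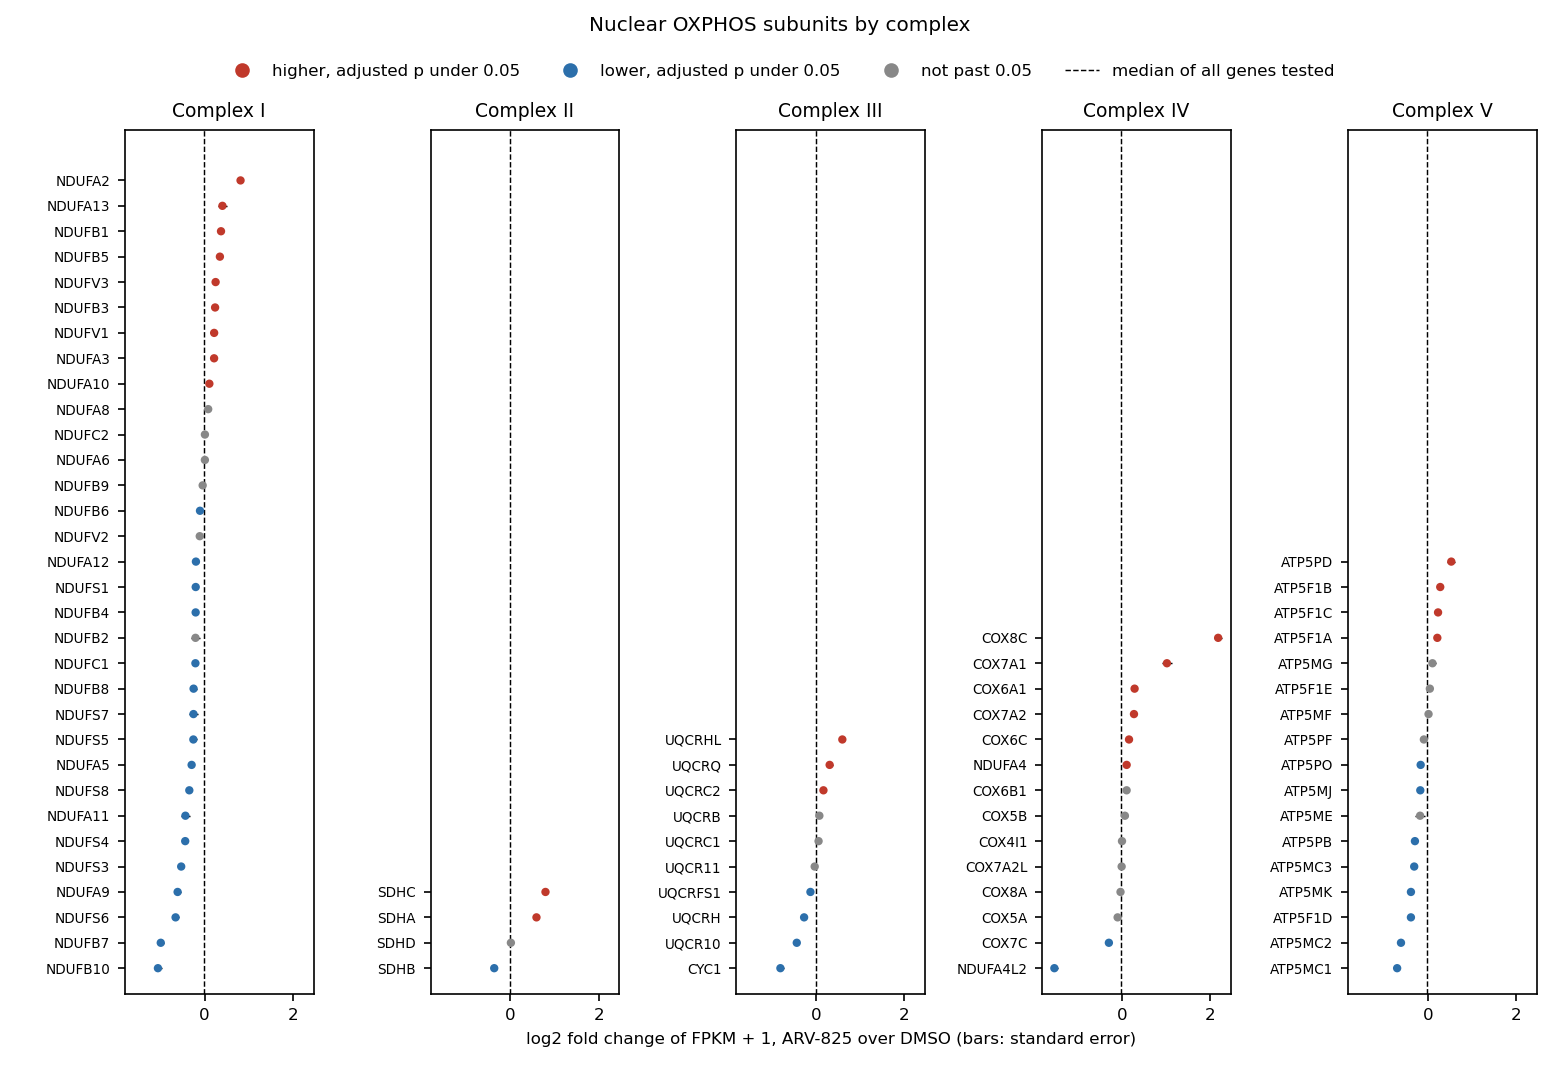
Log2 fold change of FPKM + 1, ARV-825 over DMSO, of 77 members, by complex, with bars of 1 standard error, colour for the call at an adjusted p under 0.05, and a dashed line at the median of all genes tested. COX8C (2.18) and NDUFA4L2 (−1.53) lie farthest from the line.

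Within the libraries, the complexes took different parts of the summed FPKM of the 84 genes. Complex I held 29.6% ± 0.592 in ARV-825 and 34.0% ± 0.226 in DMSO (SD, n = 3 each, here and for all values with ±). Complex III held 11.6% ± 0.00832 in ARV-825 and 12.6% ± 0.0643 in DMSO. These 2 shares were lower in every ARV-825 library than in any DMSO library. Sums weigh abundant genes most, and a few genes held much of the lower sums behind these shares. NDUFB7 was at 119 FPKM in ARV-825 and 237 FPKM in DMSO, and NDUFS5 at 421 FPKM in ARV-825 and 502 FPKM in DMSO. All of complex I summed to 1480 FPKM in ARV-825 and 1780 FPKM in DMSO. In complex III the largest fall was in CYC1. The shares of the other 3 complexes were higher in every ARV-825 library. Complex II, a small part of the whole, held 1.66% ± 0.0439 in ARV-825 and 1.35% ± 0.00384 in DMSO, and complex IV held 23.1% ± 0.0443 in ARV-825 and 21.9% ± 0.130 in DMSO. Complex V held 34.0% ± 0.596 in ARV-825 and 30.1% ± 0.348 in DMSO. A single gene, ATP5F1B, supplied 58.5% of the complex V sum in ARV-825 and 51.7% in DMSO. With ATP5F1B taken out of both sums, complex V held 17.2, 17.8 and 17.8% in the ARV-825 libraries, against 17.4, 17.5 and 16.9% in the DMSO libraries. Those groups overlap.

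**Figure D2:**
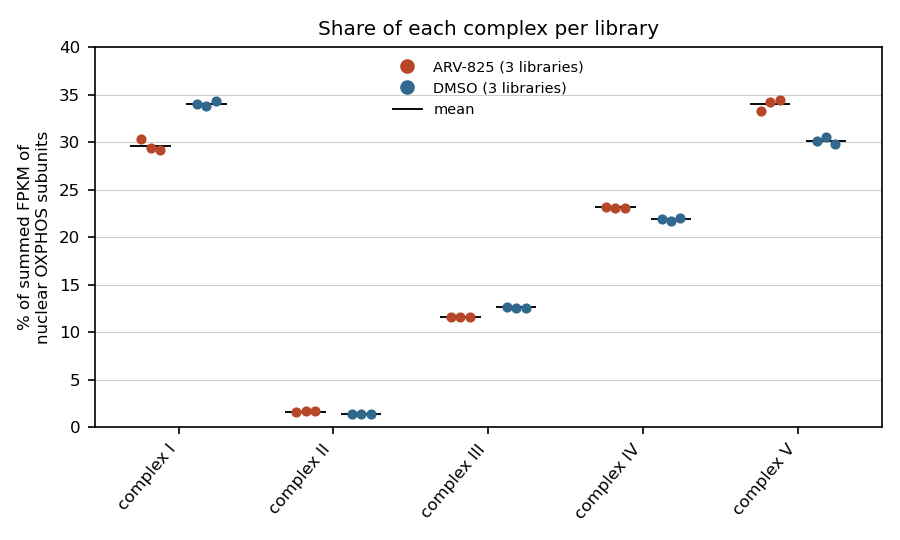
Percent of the summed FPKM of the nuclear OXPHOS subunits held by each complex, with 1 point per library, ARV-825 to the left of DMSO, and a bar at each mean. Complexes I and III are lower in all 3 ARV-825 libraries (29.6% and 11.6% on average), and complexes II, IV and V are higher in all 3.

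Complex I, the NADH dehydrogenase, had 33 of 34 members tested, of which 18 fell, 9 rose and 6 did not pass, with a median of −0.20 (25 lower and 1 higher on TPM, median −0.52). The counts of each complex and its parts, here and below, are to be read beside those of all genes. Of all genes, 37.0% were higher and 40.2% lower on FPKM, and 23.6% and 53.7% on TPM. Bare values in parentheses after a gene are log2 fold changes. The largest falls were in NDUFB10 and NDUFB7, accessory subunits of the membrane arm that face the intermembrane space. NDUFB10 (chromosome 16, 1959508 to 1961975, plus strand) had 47.4, 38.9 and 38.6 FPKM in ARV-825 replicates 1, 2 and 3, against 86.1, 91.6 and 84.9 FPKM in DMSO replicates 1, 2 and 3. Its log2 fold change was −1.06 ± 0.08 (SE, adjusted p = 2.28e-05). NDUFB7 (chromosome 19, 14566078 to 14572062, minus strand) had 132, 114 and 110.4 FPKM in ARV-825 replicates 1, 2 and 3, against 233, 232 and 247 FPKM in DMSO replicates 1, 2 and 3, with a change of −0.996 ± 0.07 (SE, adjusted p = 1.40e-05) on the log2 scale. In both genes every ARV-825 library lay far below every DMSO library, and ARV-825 replicate 1 was the highest of its group. Neither gene has an exon that another annotated gene overlaps. NDUFB9, another accessory subunit of the membrane arm, was at 261 ± 14.3 FPKM in ARV-825 and 269 ± 9.86 FPKM in DMSO, with overlapping groups. The ratio of NDUFB10 to NDUFB9 was 0.171, 0.154 and 0.153 in the ARV-825 libraries, against 0.330, 0.327 and 0.318 in the DMSO libraries, and that of NDUFB7 to NDUFB9 was 0.475, 0.452 and 0.438 in the ARV-825 libraries, against 0.894, 0.827 and 0.928 in the DMSO libraries. Neither ratio overlapped between the groups (exact two-sided permutation p = 0.1 for each, the smallest that 3 against 3 libraries allow). As both set a member with a large fall over one with overlapping groups, this follows largely from the choice of pairs.

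Among the core subunits of complex I made in the nucleus are those that carry the flavin and the iron-sulphur clusters. NDUFS3, a core subunit of the peripheral arm, fell to 16.04 ± 1.27 FPKM in ARV-825, against 23.6 ± 0.413 FPKM in DMSO (−0.53). The iron-sulphur subunits NDUFS8 (−0.35) and NDUFS1 (−0.20) fell less. NDUFS7, another iron-sulphur subunit, was at 5.25 ± 0.874 FPKM in ARV-825 and 6.40 ± 0.158 FPKM in DMSO, and its call (adjusted p = 0.0455) was lost when any 1 of 5 libraries was left out, and was kept only without ARV-825 replicate 1. Of the NDUFS7 exon length, 49.1% overlaps a gene on the other strand, and the kit does not mark strand. NDUFV1, which binds NADH and the flavin, rose on FPKM to 48.6 ± 4.53 FPKM in ARV-825, against 41.6 ± 0.724 FPKM in DMSO (0.21, and −0.091 on TPM), and its call was lost without DMSO replicate 1 (adjusted p = 0.0528) or DMSO replicate 3 (adjusted p = 0.0604). NDUFV2, its iron-sulphur partner, was at 1.45 ± 0.0103 FPKM in ARV-825 and 1.66 ± 0.260 FPKM in DMSO and did not pass (adjusted p = 0.273).

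Among the 27 accessory subunits of complex I, 26 were tested, and 13 fell, 8 rose and 5 did not pass. NDUFS6, a zinc-binding subunit of the peripheral arm, had 57.2, 47.1 and 48.9 FPKM in the ARV-825 libraries, against 80.9, 80.9 and 81.3 FPKM in the DMSO libraries, with a change of −0.66 ± 0.07 (SE, adjusted p = 1.18e-04) on the log2 scale. NDUFA9, at the joint of the arms, was at a low level of 1.10 ± 0.0751 FPKM in ARV-825 and 2.22 ± 0.0857 FPKM in DMSO (−0.61). The pseudocount of 1 understates changes of such low genes, and the NDUFA9 mean in ARV-825 was 49.7% of that in DMSO. Its change was −1.09 on TPM and −1.10 with limma-voom on recovered fragments. Those 2 values also hold a shift in scale, as the medians of all genes there were −0.31 and −0.10. No ARV-825 library of NDUFS6 came near the DMSO libraries. The largest rise was in NDUFA2 (chromosome 5, 140638740 to 140647785, minus strand), a small subunit of the NADH-oxidizing module. It had 35.8, 30.2 and 32.0 FPKM in ARV-825 replicates 1, 2 and 3, against 18.7, 18.3 and 17.4 FPKM in DMSO replicates 1, 2 and 3, with a change of 0.81 ± 0.07 (SE, adjusted p = 2.79e-05) on the log2 scale. The groups stayed apart, and of the 9 members of complex I that rose, NDUFA2 was the one that was also higher on TPM (0.53). NDUFB1 (0.37) and NDUFA13 (0.40), both small membrane-arm subunits, were next among the rises on FPKM, and neither call held on TPM (0.071 and 0.25). NDUFA13 was at 2.48 ± 0.195 FPKM in ARV-825 and 1.64 ± 0.326 FPKM in DMSO (0.61 with a pseudocount of 0.01), and 21.0% of its exons overlap another gene on the same strand. NDUFA7 was not tested, at 0.799 ± 0.0867 FPKM in ARV-825 and 0.876 ± 0.354 FPKM in DMSO. Its exons overlap another gene on the same strand over 32.3% of their length.

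**Figure D3:**
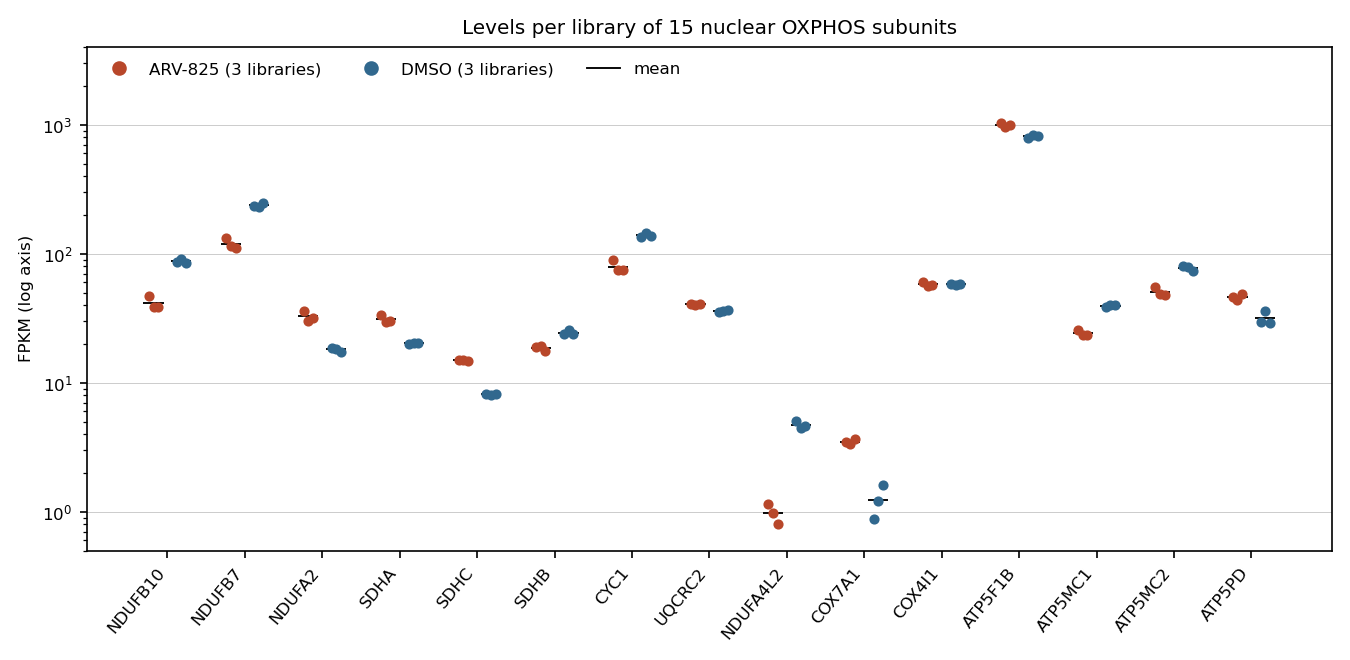
FPKM of 15 members on a log axis, with 1 point per library in the order of replicates 1, 2 and 3, ARV-825 to the left of DMSO, and a bar at each mean. NDUFB10, NDUFB7, CYC1, NDUFA4L2, ATP5MC1 and ATP5MC2 sit lower in all 3 ARV-825 libraries, NDUFA2, SDHA, SDHC, COX7A1 and ATP5PD sit higher in all 3, and the groups overlap in COX4I1.

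Complex II, succinate dehydrogenase, has 4 subunits, and they did not move together. SDHC, which anchors the enzyme in the membrane and helps to hold its haem, had 14.97, 14.98 and 14.8 FPKM in ARV-825 replicates 1, 2 and 3, against 8.25, 8.11 and 8.17 FPKM in DMSO replicates 1, 2 and 3. The log2 fold change was 0.79 ± 0.03 (SE, adjusted p = 1.42e-06), and the SD was 0.0906 FPKM in ARV-825 and 0.0682 FPKM in DMSO. SDHA, the flavoprotein that oxidizes succinate, had 33.8, 29.4 and 29.9 FPKM in the ARV-825 libraries, against 20.003, 20.5 and 20.2 FPKM in the DMSO libraries, with a change of 0.59 ± 0.06 (SE, adjusted p = 6.42e-05) on the log2 scale. SDHB, the iron-sulphur subunit that receives the electrons from SDHA, had 18.9, 19.5 and 17.7 FPKM in the ARV-825 libraries, against 23.9, 25.5 and 23.7 FPKM in the DMSO libraries, with a change of −0.37 ± 0.05 (SE, adjusted p = 3.77e-04) on the log2 scale. Both SDHC and SDHA were thus higher, and SDHB lower, in every ARV-825 library than in any DMSO library, and the 3 calls were the same on TPM (0.54, 0.30 and −0.69). SDHD, the other membrane anchor, was at 18.1 ± 1.13 FPKM in ARV-825 and 17.9 ± 0.717 FPKM in DMSO and did not pass. The subunits are needed in equal number in the enzyme, and the ratio of SDHA to SDHB was 1.79, 1.51 and 1.69 in the ARV-825 libraries, against 0.835, 0.804 and 0.853 in the DMSO libraries. For SDHC to SDHB it was 0.791, 0.770 and 0.839 in the ARV-825 libraries, against 0.344, 0.318 and 0.344 in the DMSO libraries. The ratio of SDHD to SDHB was 0.920, 0.895 and 1.10 in the ARV-825 libraries, against 0.724, 0.694 and 0.789 in the DMSO libraries. None of the 3 ratios overlapped between the groups (exact p = 0.1 for each).

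Complex III had all 10 members tested, with 3 higher, 4 lower and 3 not passed, near the shares of all genes, and a median of 0.01. On TPM, 1 was higher and 8 were lower, with a median of −0.30. CYC1, cytochrome c1, which carries electrons to cytochrome c, had 89.0, 74.6 and 74.2 FPKM in ARV-825 replicates 1, 2 and 3, against 136, 145 and 138 FPKM in DMSO replicates 1, 2 and 3. Its log2 fold change was −0.81 ± 0.07 (SE, adjusted p = 5.51e-05), the largest fall in the complex. UQCRFS1, the Rieske iron-sulphur protein, which hands the electron to cytochrome c1, fell by far less, to 70.7 ± 1.76 FPKM in ARV-825, against 77.5 ± 0.365 FPKM in DMSO (−0.13), and it was near 0 under quantile normalization. UQCR10 (−0.44), a small subunit, fell to 46.4 ± 1.252 FPKM in ARV-825, against 63.3 ± 1.39 FPKM in DMSO. UQCRC2, a core subunit that holds the complex together, was at 40.5 ± 0.507 FPKM in ARV-825 and 36.0 ± 0.870 FPKM in DMSO (0.16, and −0.14 on TPM). UQCRC1, its partner, did not pass, at 64.8 ± 5.40 FPKM in ARV-825 and 62.2 ± 1.14 FPKM in DMSO. The ratio of CYC1 to UQCRC2 was 2.18, 1.87 and 1.82 in the ARV-825 libraries, against 3.86, 4.04 and 3.73 in the DMSO libraries (exact p = 0.1), with no overlap. UQCRQ, the subunit next to cytochrome b, rose on FPKM (0.30) to 113 ± 11.5 FPKM in ARV-825, against 90.7 ± 1.81 FPKM in DMSO, and its change was −0.0033 on TPM.

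UQCRH, the hinge protein between cytochrome c1 and cytochrome c, and UQCRHL, an intronless copy of it, went opposite ways. UQCRH had 134, 124.7 and 127 FPKM in the ARV-825 libraries, against 152, 156 and 159 FPKM in the DMSO libraries (−0.27 ± 0.04, SE, adjusted p = 4.69e-04), and UQCRHL had 3.96, 4.33 and 3.82 FPKM in the ARV-825 libraries, against 2.20, 2.53 and 2.30 FPKM in the DMSO libraries (0.59 ± 0.06, SE, adjusted p = 1.33e-04). The share of UQCRHL in the FPKM of the pair was 3.06% ± 0.262 in ARV-825 and 1.48% ± 0.0985 in DMSO. The coding sequences are shown because so few bases separate them, with capitals at the bases that differ between the copies. They are from GENCODE 29 transcripts, 5′ to 3′, both from chromosome 1.
UQCRH: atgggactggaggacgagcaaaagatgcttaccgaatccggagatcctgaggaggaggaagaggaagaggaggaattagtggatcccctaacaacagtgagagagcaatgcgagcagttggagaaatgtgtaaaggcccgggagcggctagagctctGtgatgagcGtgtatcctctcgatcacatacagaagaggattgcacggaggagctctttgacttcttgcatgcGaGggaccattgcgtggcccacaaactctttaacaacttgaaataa
UQCRHL: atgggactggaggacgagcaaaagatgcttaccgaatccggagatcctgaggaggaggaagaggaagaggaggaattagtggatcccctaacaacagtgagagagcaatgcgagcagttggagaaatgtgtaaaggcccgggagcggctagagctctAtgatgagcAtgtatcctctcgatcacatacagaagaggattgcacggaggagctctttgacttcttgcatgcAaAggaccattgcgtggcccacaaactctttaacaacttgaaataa
The 2 sequences of 276 bases differ at 4 bases, 3 of which change the encoded residue. Fragments that cover none of these 4 bases fit both genes in the coding part, and the sources used here do not give the authors' treatment of such fragments. The values of UQCRHL are therefore uncertain. Most of the copies of member genes in the genome are pseudogenes. Among all genes measured, 188 pseudogenes are named after genes of these families, 13 of them reached a mean of 1 FPKM, and together they took 0.513% of the fragments of members and pseudogenes.

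Complex IV, cytochrome c oxidase, had 14 of 18 members tested, of which 6 rose, 2 fell and 6 did not pass, with a median of 0.09. On TPM the balance turned round, with 2 higher, 10 lower and a median of −0.22. Several of the subunits that most tissues use did not pass. COX4I1, the largest nuclear subunit, was at 58.3 ± 2.22 FPKM in ARV-825 and 58.2 ± 0.474 FPKM in DMSO, COX5A at 75.4 ± 3.21 FPKM in ARV-825 and 80.7 ± 1.34 FPKM in DMSO and COX5B at 101 ± 9.44 FPKM in ARV-825 and 96.2 ± 2.79 FPKM in DMSO, and none of them passed on FPKM (−0.31, −0.41 and −0.24 on TPM). COX5A is the nearest of these to the threshold (adjusted p = 0.0569), and without ARV-825 replicate 1 it passed as lower (−0.13, adjusted p = 0.0082). COX8A passed as lower without the same library (−0.10, adjusted p = 0.0226). COX7C, a small membrane subunit, fell to 139 ± 5.03 FPKM in ARV-825, against 171 ± 2.24 FPKM in DMSO (−0.30). COX6A1, the widely expressed form of subunit VIa, rose on FPKM to 43.7 ± 2.27 FPKM in ARV-825, against 35.6 ± 0.924 FPKM in DMSO (0.29, and −0.017 on TPM), as did COX7A2 to 60.6 ± 5.15 FPKM in ARV-825, against 49.9 ± 1.58 FPKM in DMSO (0.27, and −0.034 on TPM).

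The larger changes in complex IV were in paralogs that are used in particular tissues or conditions, all of them at low levels here. NDUFA4L2, the paralog of NDUFA4 known as a target of hypoxia-inducible factor, had 1.15, 0.972 and 0.804 FPKM in ARV-825 replicates 1, 2 and 3, against 5.07, 4.43 and 4.63 FPKM in DMSO replicates 1, 2 and 3. Its log2 fold change was −1.53 ± 0.08 (SE), or −2.27 with a pseudocount of 0.01, and its share in the FPKM of NDUFA4 and NDUFA4L2 was 1.35% ± 0.241 in ARV-825 and 6.67% ± 0.521 in DMSO. With an ARV-825 mean of 0.975 FPKM, NDUFA4L2 passed the filter on low values only through the DMSO libraries, so its call as lower is no separate support. NDUFA4 itself was at 71.0 ± 0.385 FPKM in ARV-825 and 65.9 ± 1.11 FPKM in DMSO (0.11, and −0.20 on TPM), a call that was also lost without DMSO replicate 1 (adjusted p = 0.0684). COX7A1, the form of subunit VIIa of heart and skeletal muscle, had 3.48, 3.37 and 3.67 FPKM in ARV-825 replicates 1, 2 and 3, against 0.887, 1.21 and 1.63 FPKM in DMSO replicates 1, 2 and 3. Its change was 1.02 ± 0.12 (SE, adjusted p = 2.00e-04) on the log2 scale, or 1.53 with a pseudocount of 0.01, and its share in the FPKM of COX7A1 and COX7A2 was 5.49% ± 0.481 in ARV-825 and 2.44% ± 0.784 in DMSO. In fragments, COX7A1 had 156 in all ARV-825 libraries and 70 in all DMSO libraries, a ratio of 2.62 per fragment in genes (95% exact interval 1.97 to 3.53, counting error only). Of 4 striated muscle markers none reached 1 FPKM. MYH7 was at 0 in every library, and CKM was at 0.627 ± 0.0934 FPKM in ARV-825 and 0.0553 ± 0.0396 FPKM in DMSO, with its part in the COX7A1 result not tested.

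COX8C, the form of subunit VIII known from testis, had 3.35, 4.12 and 3.59 FPKM in ARV-825 replicates 1, 2 and 3, against 0, 0 and 0.0930 FPKM in DMSO replicates 1, 2 and 3. It had 87 fragments in the 3 ARV-825 libraries together and 1 fragment in the 3 DMSO libraries together. Per fragment in genes the ratio was 102, with a 95% exact interval of 17.9 to 4090 that covers counting error only. COX8C passed the filter on low values only through the ARV-825 libraries, so neither its call nor this interval is separate support. Its fitted log2 fold change of 2.18 depends strongly on the pseudocount. On FPKM it was 4.92 with a pseudocount of 0.1 and 7.403 with a pseudocount of 0.01. It also depends on the scale, and was 3.36 on TPM. COX8C (chromosome 14, 93347191 to 93348356, plus strand) lies inside the body of UNC79 (chromosome 14, 93333219 to 93707876), on the same strand, and no annotated exon of another gene overlaps its exons. UNC79 had 1.56, 1.77 and 1.58 FPKM in the ARV-825 libraries, against 0.0535, 0.0557 and 0.0277 FPKM in the DMSO libraries. Both genes were near absent in DMSO and above it in every ARV-825 library, and whether reads from UNC79 transcripts account for those of COX8C was not tested. The other paralogs were near 0 in both groups. COX4I2 and COX7B2 were listed at 0 in all 6 libraries, COX6A2 had a value above 0 in 1 ARV-825 library only, and COX6B2 was at 0.119 ± 0.0586 FPKM in ARV-825 and 0.134 ± 0.0319 FPKM in DMSO.

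Complex V, the ATP synthase, had 17 of 18 members tested, of which 4 rose, 8 fell and 5 did not pass, with a median of −0.16 (1 higher and 12 lower on TPM, median −0.47). The head that makes ATP, formed by ATP5F1A to ATP5F1E, summed to 1285 FPKM in ARV-825 and 1095 FPKM in DMSO (means of 3 libraries). ATP5F1B, the catalytic beta subunit and the member with the highest FPKM in both groups, had 1029.9, 960.2 and 989 FPKM in the ARV-825 libraries, against 795, 838 and 813 FPKM in the DMSO libraries (0.28 ± 0.04, SE, adjusted p = 6.82e-04). The alpha subunit ATP5F1A was at 87.8 ± 1.89 FPKM in ARV-825 and 75.4 ± 0.552 FPKM in DMSO (0.22), and the gamma subunit ATP5F1C, the rotating shaft, was at 111 ± 0.542 FPKM in ARV-825 and 93.9 ± 0.638 FPKM in DMSO (0.23). These 3 were higher in every ARV-825 library on FPKM, while on TPM their log2 fold changes were −0.027, −0.091 and −0.074 in the order B, A and C. The proportions among them moved little. The ratio of ATP5F1A to ATP5F1C was 0.809, 0.780 and 0.793 in the ARV-825 libraries, against 0.799, 0.801 and 0.807 in the DMSO libraries (exact p = 0.5), with overlapping groups, and that of ATP5F1B to ATP5F1A was 11.5, 11.1 and 11.3 in the ARV-825 libraries, against 10.6, 11.1 and 10.8 in the DMSO libraries, with no overlap (exact p = 0.1) although the nearest libraries were level to 3 digits. The delta subunit ATP5F1D fell to 58.3 ± 6.33 FPKM in ARV-825, against 76.0 ± 3.55 FPKM in DMSO (−0.38), and the epsilon subunit ATP5F1E did not pass.

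The ring of c subunits, which turns as protons cross the membrane, was the part of complex V in which every gene fell. The c subunit is encoded by 3 genes, ATP5MC1, ATP5MC2 and ATP5MC3, which differ in the import signal and give the same mature protein. Their last 77 codons are shown to make this visible, from GENCODE 29 transcripts (ATP5MC1 on chromosome 17, ATP5MC2 on chromosome 12, ATP5MC3 on chromosome 2), 5′ to 3′ and with the stop codon. Capitals mark the bases at which the 3 genes are not all alike.
ATP5MC1: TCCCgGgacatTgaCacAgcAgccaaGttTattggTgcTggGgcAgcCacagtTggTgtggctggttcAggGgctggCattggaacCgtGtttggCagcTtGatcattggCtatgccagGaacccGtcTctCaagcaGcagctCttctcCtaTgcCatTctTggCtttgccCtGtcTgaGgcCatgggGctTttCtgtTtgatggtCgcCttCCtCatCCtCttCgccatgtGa
ATP5MC2: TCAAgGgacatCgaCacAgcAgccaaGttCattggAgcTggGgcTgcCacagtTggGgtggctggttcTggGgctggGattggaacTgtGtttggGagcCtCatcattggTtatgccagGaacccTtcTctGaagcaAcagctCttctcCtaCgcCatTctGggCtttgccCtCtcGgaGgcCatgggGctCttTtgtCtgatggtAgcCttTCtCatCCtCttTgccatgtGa
ATP5MC3: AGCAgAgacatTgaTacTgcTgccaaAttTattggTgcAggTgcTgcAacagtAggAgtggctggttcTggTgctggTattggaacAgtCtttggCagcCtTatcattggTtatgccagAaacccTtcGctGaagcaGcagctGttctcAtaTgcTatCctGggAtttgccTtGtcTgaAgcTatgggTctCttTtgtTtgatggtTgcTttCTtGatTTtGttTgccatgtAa
Of the 234 bases shown, 58 differ in at least 1 gene, and the 77 residues encoded are the same in all 3. Identity was 88.5% between ATP5MC1 and ATP5MC2, and 79.9% between ATP5MC3 and either of the others. ATP5MC1 had 25.6, 23.6 and 23.3 FPKM in the ARV-825 libraries, against 38.5, 40.2 and 40.2 FPKM in the DMSO libraries (−0.69 ± 0.05, SE, adjusted p = 9.90e-06). ATP5MC2, the most abundant on FPKM, had 55.3, 48.7 and 48.1 FPKM in the ARV-825 libraries, against 79.8, 79.4 and 73.7 FPKM in the DMSO libraries (−0.61 ± 0.06, SE, adjusted p = 9.91e-05). ATP5MC3 had 35.2, 31.9 and 30.7 FPKM in the ARV-825 libraries, against 40.4, 40.4 and 40.7 FPKM in the DMSO libraries (−0.31 ± 0.05, SE, adjusted p = 0.00142). All 3 genes were lower in every ARV-825 library than in any DMSO library, and ATP5MC3 fell least. The share of ATP5MC3 in the FPKM of the 3 genes was 30.3% ± 0.275 in ARV-825 and 25.7% ± 0.569 in DMSO, so its part of the c-subunit message was larger with ARV-825. The groups did not overlap (exact p = 0.1). The summed FPKM of the 3 genes was 107 in ARV-825 and 158 in DMSO. Set against the beta subunit, the ratio of ATP5F1B to ATP5MC2 was 18.6, 19.7 and 20.6 in the ARV-825 libraries, against 9.97, 10.6 and 11.0 in the DMSO libraries (exact p = 0.1).

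**Figure D4:**
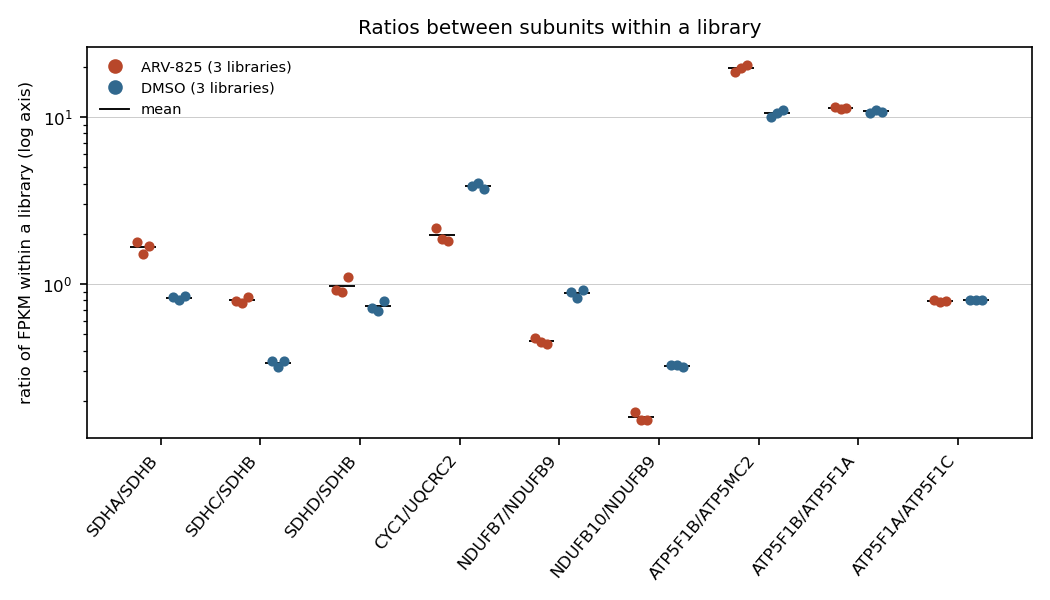
Ratio of the FPKM of the first gene to that of the second within each library, on a log axis, for 9 pairs, with 1 point per library, ARV-825 to the left of DMSO, and a bar at each mean. SDHA/SDHB, SDHC/SDHB and ATP5F1B/ATP5MC2 are higher in all 3 ARV-825 libraries, CYC1/UQCRC2, NDUFB7/NDUFB9 and NDUFB10/NDUFB9 are lower in all 3, and ATP5F1A/ATP5F1C overlaps.

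The stalk and the accessory subunits of complex V were mixed. ATP5PD, subunit d of the peripheral stalk that keeps the head from turning, had 46.1, 43.5 and 48.5 FPKM in ARV-825 replicates 1, 2 and 3, against 29.6, 36.2 and 29.1 FPKM in DMSO replicates 1, 2 and 3, with a change of 0.53 ± 0.09 (SE, adjusted p = 0.00113) on the log2 scale. It was higher in every ARV-825 library, and DMSO replicate 2 was the highest of its group. ATP5PB, subunit b of the same stalk, was at 47.5 ± 1.36 FPKM in ARV-825 and 58.3 ± 0.983 FPKM in DMSO (−0.29), and ATP5PO, the subunit that joins the stalk to the head, at 12.1 ± 0.541 FPKM in ARV-825 and 13.6 ± 0.854 FPKM in DMSO (−0.16), with overlapping groups. ATP5PF did not pass. Of the 5 accessory membrane subunits tested, ATP5MK (−0.38) and ATP5MJ (−0.17) fell, and ATP5ME, ATP5MF and ATP5MG did not pass. ATP5ME was at 33.3 ± 5.73 FPKM in ARV-825 and 37.4 ± 3.14 FPKM in DMSO, and 61.6% of its exon length overlaps a gene on the other strand. ATP5MGL, a copy of ATP5MG, was at 0.0856 ± 0.0855 FPKM in ARV-825 and 0.157 ± 0.0253 FPKM in DMSO and was not tested.

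Over all 16 ratios and shares computed within libraries, the exact test cannot go below 0.1, so none can pass a threshold of 0.05, alone or adjusted. Overlap of exons with other genes was common. At least 10% of the exon length was shared with a gene on the same strand in 15 of the 84 members, and with a gene on the other strand in 14. Of the members described above, the part shared with a gene on the other strand was 13.04% in NDUFA2, 21.0% in NDUFB9, 11.7% in NDUFS1, 20.8% in UQCRQ, 19.1% in ATP5PD, 10.3% in ATP5PB, 23.2% in ATP5F1E and 23.1% in ATP5PF. The part shared on the same strand was 19.6% in NDUFS3, 28.4% in NDUFV2, 10.6% in NDUFA9, 11.2% in SDHD, 13.02% in COX6A1, 34.5% in COX8A, 19.6% in ATP5PO and 15.4% in ATP5MK. How these overlaps bear on the values was not tested gene by gene. Among the 36 tested members whose exons no other gene overlaps, a choice made after the values were seen, 14 were higher and 16 lower, and the median was 0.02. These counts are near the shares of all genes (37.0% higher and 40.2% lower). The change in all genes differed with exon length, though not in 1 direction. The median of all genes was 0.34 for exons under 1 kb, −0.05 from 1 to 2 kb, −0.17 from 2 to 4 kb, −0.06 from 4 to 8 kb and 0.03 above. In the same order, the members had medians of −0.17 (9 genes), −0.15 (20 genes), −0.01 (28 genes), −0.0076 (13 genes) and 0.09 (8 genes).

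The subunits that the rule left out were measured in the same libraries. Of the 13 genes of the mitochondrial genome, 12 rose and none fell, with a median log2 fold change of 0.94 on FPKM, and MT-ATP8 did not pass. Among all genes, 37.0% were higher and 40.2% lower on FPKM. MT-ND5 was at 2533 ± 59.9 FPKM in ARV-825 and 1134 ± 22.9 FPKM in DMSO, and MT-CYB at 4655 ± 316 FPKM in ARV-825 and 2064 ± 130.0 FPKM in DMSO. The summed FPKM of the 13 genes was 99869 ± 10413 in ARV-825 and 52831 ± 3786 in DMSO, while the nuclear members summed to 4995 ± 261 FPKM in ARV-825 and 5232 ± 68.9 FPKM in DMSO. Per FPKM of mitochondrial subunits the libraries held 0.0602, 0.0452 and 0.0464 FPKM of nuclear subunits in ARV-825, against 0.0988, 0.0932 and 0.106 in DMSO. The nuclear part was therefore smaller in every ARV-825 library on a ratio that no scaling can move. Transcripts of the mitochondrial genome have short poly(A) tails, and how the selection treated them was not tested. Of 6 further nuclear genes of the chain, NDUFB11 (0.20) and ATP5IF1 (0.33), the inhibitor of the ATP synthase, rose on FPKM (−0.11 and 0.026 on TPM), and NDUFA1, NDUFAB1, COX7B and CYCS, cytochrome c itself (−0.27), fell.

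Genes that build the complexes were taken as lists of assembly factors, with counts on FPKM first, to be read beside the 37.0% higher and 40.2% lower of all genes on FPKM and the 23.6% and 53.7% on TPM. Counted as lower, NDUFAF6 and PET117 had means under 1 FPKM in ARV-825 and passed the filter only through the DMSO libraries. For complex I, 3 rose and 8 fell of 15 tested (3 and 11 on TPM), and TIMMDC1, which assembles the membrane arm, was at 27.0 ± 1.77 FPKM in ARV-825 and 12.5 ± 0.641 FPKM in DMSO (1.05 ± 0.06, SE, adjusted p = 4.90e-06). NDUFAF8, which helps to build the peripheral arm, was at 18.1 ± 2.52 FPKM in ARV-825 and 33.7 ± 0.593 FPKM in DMSO (−0.87). For complex II, 2 of 4 rose (SDHAF2 and SDHAF4) and SDHAF3 fell, while on TPM 1 was higher and 2 were lower. For complex III, 3 rose and 2 fell of 9 (1 and 5 on TPM), and UQCC2, needed to make cytochrome b, was at 3.79 ± 0.448 FPKM in ARV-825 and 11.2 ± 0.242 FPKM in DMSO (−1.35 ± 0.07, SE, adjusted p = 4.08e-06). For complex IV, 6 rose and 12 fell of 22 (4 and 15 on TPM), and the largest falls were in COA6 and COA7. COA6, which helps to deliver copper, was at 5.12 ± 0.795 FPKM in ARV-825 and 17.7 ± 0.527 FPKM in DMSO (−1.62), COA7 at 6.20 ± 0.0326 FPKM in ARV-825 and 19.1 ± 0.525 FPKM in DMSO (−1.48), and TACO1, the activator of COX1 translation, at 6.64 ± 0.766 FPKM in ARV-825 and 16.2 ± 1.23 FPKM in DMSO (−1.18). SURF1, an early assembly factor of the same complex, was at 34.1 ± 2.05 FPKM in ARV-825 and 15.6 ± 0.341 FPKM in DMSO (1.08 ± 0.05, SE, adjusted p = 2.01e-06). For complex V, ATPAF2 rose and ATPAF1 fell of 3 tested, while on TPM none was higher and 2 were lower. In coenzyme Q synthesis 4 rose and 5 fell of 11 (2 and 5 on TPM), with COQ3 at 2.39 ± 0.501 FPKM in ARV-825 and 7.95 ± 0.179 FPKM in DMSO (−1.41) and PDSS1, which makes the tail of the molecule, at 6.67 ± 0.328 FPKM in ARV-825 and 18.1 ± 0.405 FPKM in DMSO (−1.32).

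The list of transcriptional regulators had 13 of 14 genes tested, and 10 fell and 2 rose, with a median of −0.55, where 40.2% of all genes were lower and 37.0% higher. On TPM, 11 were lower and 1 was higher, where 53.7% and 23.6% of all genes were. PPARGC1B, a coactivator of mitochondrial genes, was at 0.998 ± 0.0699 FPKM in ARV-825 and 4.41 ± 0.0303 FPKM in DMSO (−1.44 ± 0.06, SE), and its relative PPRC1 at 23.4 ± 1.20 FPKM in ARV-825 and 59.6 ± 1.99 FPKM in DMSO (−1.32). Both PPARGC1B and GABPB2, counted as lower, had means under 1 FPKM in ARV-825 and passed the filter only through the DMSO libraries. Their calls as lower are therefore no separate support. NRF1 was at 4.16 ± 0.122 FPKM in ARV-825 and 6.57 ± 0.229 FPKM in DMSO (−0.55), GABPB1 at 3.69 ± 0.311 FPKM in ARV-825 and 7.29 ± 0.335 FPKM in DMSO (−0.82), ESRRA at 23.7 ± 3.10 FPKM in ARV-825 and 36.0 ± 0.756 FPKM in DMSO (−0.59) and MYC at 85.8 ± 5.14 FPKM in ARV-825 and 158 ± 1.30 FPKM in DMSO (−0.88). YY1 did not pass, at 28.2 ± 0.851 FPKM in ARV-825 and 26.7 ± 0.402 FPKM in DMSO. NFE2L2 (0.55) and CREB1 (0.33) rose, and CREB1 did not pass on TPM (0.074). The median of the regulators stood well below that of the subunits, −0.55 against −0.04, as a description of these lists. No link between a regulator and a subunit was tested.

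Short motifs of the factors named above were counted in RefSeq promoter windows (GRCh38.p14, 250 bases before to 50 bases after each start, both strands). Windows were found for 65 of the 84 members, 78 windows in all, and for 35116 starts over the genome. CCGGAAG, the core of the ETS motif that GABP binds, was in 26.9% of member windows and 10.3% of all windows. CATGCGC, a part of the NRF1 motif, was in 21.8% and 4.43%, and AAGATGG, the YY1 type, in 24.4% and 5.84%. CACGTG, the E-box that MYC binds, was in 8.97% and 7.26%. By call, CATGCGC was found in 2 of 17 genes that rose, 7 of 27 that fell and 6 of 17 that did not pass, and AAGATGG in 2, 10 and 5 of the same genes. CCGGAAG was in 5, 6 and 9 of them, and CACGTG in 0, 4 and 2. A match is a description of the letters and not a binding site.

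Windows of 120 bases just before the start are shown for 4 members that passed with a log2 fold change above 0.4 in size and whose window overlaps no annotated exon, 5′ to 3′ on the strand of the gene, with any of the 4 motifs in capitals.
NDUFB7, chr19:14572067-14572186, minus strand: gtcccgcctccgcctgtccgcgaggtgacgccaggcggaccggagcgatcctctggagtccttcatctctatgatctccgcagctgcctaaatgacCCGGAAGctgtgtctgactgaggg
ATP5MC2, chr12:53675420-53675539, minus strand: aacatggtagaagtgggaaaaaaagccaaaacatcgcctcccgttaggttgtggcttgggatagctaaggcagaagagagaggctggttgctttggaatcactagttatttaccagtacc
UQCR10, chr22:29767249-29767368, plus strand: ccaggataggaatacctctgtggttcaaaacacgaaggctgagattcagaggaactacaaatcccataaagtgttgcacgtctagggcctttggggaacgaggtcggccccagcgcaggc
COX8C, chr14:93347062-93347181, plus strand: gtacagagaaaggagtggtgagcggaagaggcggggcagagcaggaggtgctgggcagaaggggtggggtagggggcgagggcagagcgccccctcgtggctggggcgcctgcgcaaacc
The window of NDUFB7 (−0.996) holds the ETS letters once. None of the 4 motifs is in the windows of ATP5MC2 (−0.61), UQCR10 (−0.44) and COX8C, which says only that these letters are not in the bases shown.

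Medians of the members and of all genes moved together from 1 way of processing to the next. Subtracting the median of all genes tested, that of the members lay between −0.07 and 0.05 over all settings. It was 0.05 with protein-coding genes alone as the background, where the median of all genes was −0.09, and was negative, or 0 to 2 decimals with a filter at 5 FPKM, in the others. On the same relative scale complex I lay between −0.23 and −0.11, complex II between 0.27 and 0.39, complex IV between 0.04 and 0.18, and complex V between −0.18 and −0.05, and complex III crossed 0.

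**Figure D5:**
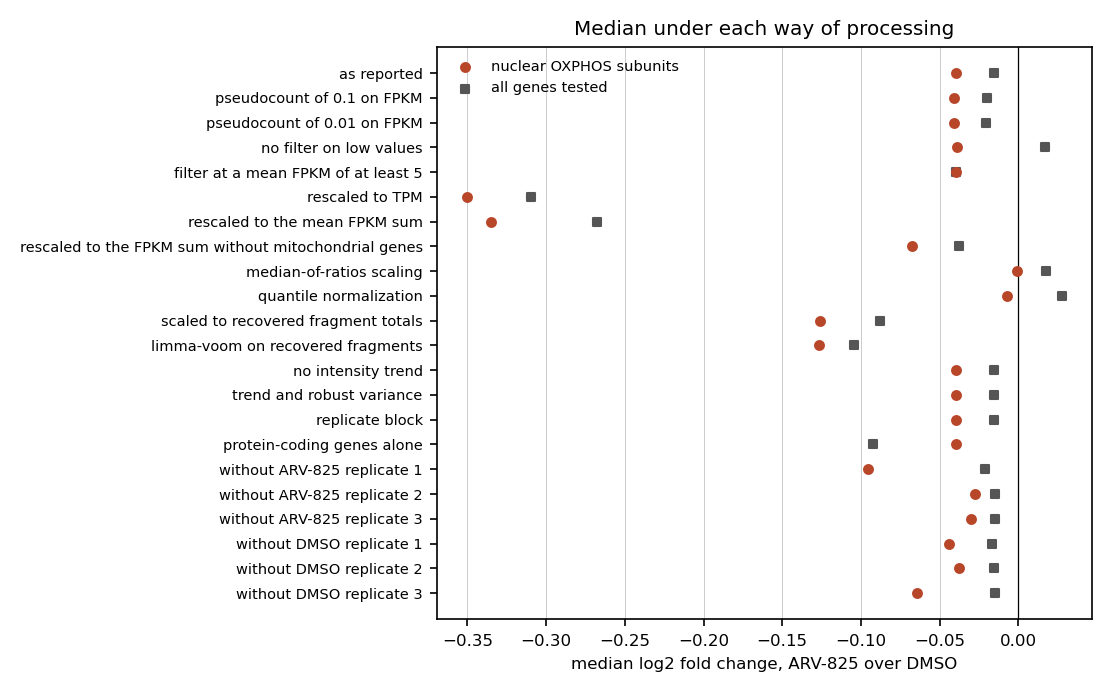
Median log2 fold change, ARV-825 over DMSO, of the members tested (circles) and of all genes tested (squares) as reported and under each of 21 other ways of processing. Both medians shift to the left together with TPM (−0.35 and −0.31) and with the mean FPKM sum (−0.33 and −0.27).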

How the data were processed

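RNA of 6 HGC27 samples was analysed from 1 table of FPKM values, which the authors deposited with a column per library. The processing notes of the submitters list HISAT2 2.0.5 and a mouse build (mm10), yet all 58735 identifiers are human and found in GENCODE 29, from which exon lengths, gene classes and GRCh38 coordinates were taken. The notes name no counting tool. Fragments recovered as FPKM times exon length were within 0.05 of a whole number for 100% of values above 0.

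Members and lists were chosen with earlier results of these data known. Genes with a mean of at least 1 FPKM were fitted on log2(FPKM + 1) with limma 3.58.1 (eBayes with an intensity trend) in R 4.3.3. Benjamini-Hochberg adjustment ran over all 13442 genes, with a threshold of 0.05. For ratios within libraries, whose pairs were not fixed in advance, the test was an exact two-sided permutation over the 6 libraries. Named are the 3 largest rises and falls of each complex, core subunits, isoform genes and members not tested, and other members and pathway genes were named after their values were seen. A core subunit that this rule names is not reported here. Alternatives covered pseudocount, filter, scaling, variance model, replicate block, gene class and each library left out. Promoters are from RefSeq GRCh38.p14.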

Additional observations from a re-analysis of the deposited data

How the results depend on the processing

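The counts of members kept within 1.5 times the reported 24 higher and 33 lower except where the libraries were set to an equal FPKM sum over all genes. Rescaled to TPM, 7 were higher and 57 lower (3176 and 7214 of all genes) with a median of −0.35. Rescaled to the mean FPKM sum, 7 were higher and 57 lower (3197 and 7226 of all genes) with a median of −0.33. The median was −0.13 on recovered fragment totals and −0.13 with limma-voom on recovered fragments. With each library left out in turn, 21 to 25 members were higher and 28 to 37 lower, beside 4656 to 5070 and 5112 to 5536 of all genes. The median of the members then lay between −0.10 and −0.03, and that median less the median of all genes between −0.07 and −0.01. Of 45 named genes, 13 that passed before or after turned negative on both rescalings. On TPM and on the mean FPKM sum, the log2 fold changes were −0.091 and −0.090 in ATP5F1A, −0.027 and −0.027 in ATP5F1B, −0.074 and −0.074 in ATP5F1C, −0.31 and −0.31 in COX4I1, −0.24 and −0.24 in COX5B, −0.017 and −0.017 in COX6A1, −0.20 and −0.20 in COX6B1, −0.034 and −0.033 in COX7A2, −0.20 and −0.20 in NDUFA4, −0.091 and −0.090 in NDUFV1, −0.30 and −0.28 in SDHD, −0.14 and −0.14 in UQCRC2, and −0.0033 and −0.0032 in UQCRQ. ATP5F1B was also negative under quantile normalization (−0.021). Rescaled to the FPKM sum without mitochondrial genes, 22 members were higher and 35 lower (4808 and 5573 of all genes) with a median of −0.07. No named gene that passed before or after that rescaling changed sign. Sign changes of genes that passed in neither were not counted. Correlations between libraries of the same replicate number were 0.0042, 0.041 and 0.038. With 3 libraries per group, such values cannot show whether the samples were paired. With the replicate block, 22 members were higher and 31 lower, beside 4870 and 5279 of all genes. Of the named genes, NDUFA4 lost its call there (0.11, adjusted p = 0.0568). Low counts limit COX8C, COX7A1 and NDUFA4L2, and the overlap of exons limits those genes for which a share is given.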
